A study of Mus musculus with 9 samples.

Results

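Perigonadal white adipose tissue, the fat depot beside the gonads, was compared between mice of the genotype G609G/G609G and wild-type mice (wt), all aged 4 months. The comparison used 6 of the 9 arrays of the series, 3 per genotype, chosen by the array titles and called G609G and WT here. Each array carried labelled total RNA of 1 sample. The series calls its replicates biological, but the labels do not say whether a sample came from 1 mouse or a pool, so the p-values speak of the spread among these samples and of nothing wider. The other 3 arrays, from LCS/LCS mice of the same age and depot, entered the model for its estimate of spread and serve where G609G is set against another genotype. G609G is known as a mutation of Lmna that creates a cryptic splice site, from which a shortened lamin A called progerin is made. It is a germline allele, present in every cell, and mice that carry 2 copies are known to lose body fat and to age early. LCS is known as an Lmna allele that gives lamin C and no lamin A.

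Fat cells store triglyceride when insulin is high. In fasting they release fatty acids, under control of receptors that raise or lower cyclic AMP. FoxO factors and the stress factor ATF4 are known to switch on genes for autophagy, protein breakdown and amino acid supply when nutrients or insulin are short. Metallothioneins are small proteins that bind zinc and copper, and their promoters carry copies of a metal response element. Hox genes encode transcription factors of body position, and fat depots keep depot-specific Hox patterns in adult life.

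The 3 promoters printed here belong to genes of these programmes that rose in G609G, the metallothioneins Mt1 and Mt2 and the ATF4 target Chac1. They come from RefSeq by symbol, on GRCm38.p6, and run from 250 bases before to 50 bases after the start. Mt1 lies at chr8:94178839-94179138, Mt2 at chr8:94172368-94172667 and Chac1 at chr2:119350992-119351291, all on the plus strand. Capitals mark matches on either strand, for Mt1 and Mt2 to the metal response letters TGCACNC or TGCGCNC, and for Chac1 to the amino acid response letters TGATGNAA.
Mt1: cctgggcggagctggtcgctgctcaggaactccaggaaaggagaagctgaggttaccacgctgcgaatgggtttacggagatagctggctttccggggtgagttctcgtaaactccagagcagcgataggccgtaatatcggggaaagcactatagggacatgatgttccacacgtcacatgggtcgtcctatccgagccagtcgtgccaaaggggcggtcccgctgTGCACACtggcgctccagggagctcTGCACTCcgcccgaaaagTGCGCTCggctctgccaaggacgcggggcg
Mt2: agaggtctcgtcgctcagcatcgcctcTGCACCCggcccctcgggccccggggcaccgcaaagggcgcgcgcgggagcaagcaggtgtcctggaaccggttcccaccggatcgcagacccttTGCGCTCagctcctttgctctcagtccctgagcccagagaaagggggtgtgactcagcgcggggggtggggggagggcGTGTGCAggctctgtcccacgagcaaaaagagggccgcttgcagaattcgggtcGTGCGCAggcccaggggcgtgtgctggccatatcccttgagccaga
Chac1: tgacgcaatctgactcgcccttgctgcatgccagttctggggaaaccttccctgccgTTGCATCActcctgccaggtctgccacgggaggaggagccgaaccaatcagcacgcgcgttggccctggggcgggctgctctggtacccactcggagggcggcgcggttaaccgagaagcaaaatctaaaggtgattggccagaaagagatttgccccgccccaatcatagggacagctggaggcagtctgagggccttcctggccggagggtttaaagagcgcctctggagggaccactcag
Mt1 held 3 metal response matches and Mt2 held 4. Of 32851 mouse promoters of this length, 1.97% held at least 3 and 0.517% at least 4. Chac1 held 1 amino acid response match, and 3.97% of promoters held at least 1. A match is a description of the letters and not a measured binding site.

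The deposited value of a probe set is a log2 intensity, and a gene's value is the median-polish summary of its probe sets that carry exactly 1 gene symbol. The median probe set read 7.21 ± 0.06 in WT and 6.57 ± 0.06 in G609G (SD, n = 3 arrays each), against 7.23 ± 0.04 in LCS. Each fold is therefore given on 2 scales, once as deposited and once relative to the median gene, with the offset of -0.46 between the arrays' gene values taken out. Over 11342 genes tested the median log2 fold was -0.47 on the first scale and -0.01 on the second. A gene is called here, and said to have risen or fallen, when limma gave an adjusted p under 0.05 and a fold of at least 1.5 in the same direction under both scalings. The number of arrays limits the precision.

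By this rule 419 genes, 3.69% of those tested, rose in G609G and 1833 genes, 16.2%, fell. On the deposited scale alone 419 genes (3.69%) were higher and 4676 (41.2%) lower. Relative to the median gene alone 1107 (9.76%) were higher and 1833 (16.2%) lower. The rule thus asks more of a rise than of a fall. The simulated data held a uniform lower offset in G609G, which set a 2-fold rise just under the threshold as deposited. There 100% of 3-fold rises and of 2-fold falls were called, but only 5.88% of 2-fold rises. These shares follow largely from that offset. Groups did not overlap, relative to the median gene, for 71.6% of all genes, so separate groups alone are no sign of a large change here.

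**Figure D1:**
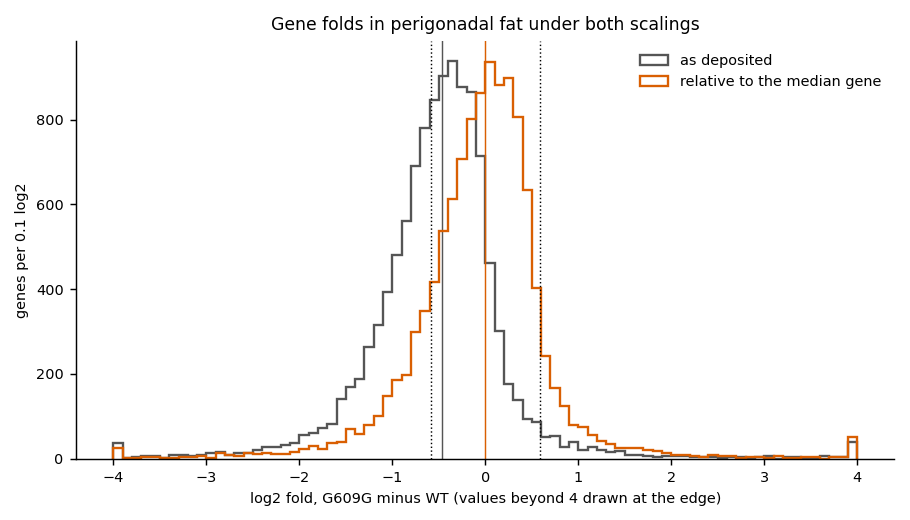
Number of genes per 0.1 log2 (vertical axis) by their log2 fold in G609G minus WT (horizontal axis), on the deposited scale in grey and relative to the median gene in orange. Solid lines mark the medians, -0.47 and -0.01, and dotted lines the 1.5-fold threshold; the 2 outlines have like shapes and lie 0.46 apart.

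The label of the tissue was checked with marker genes. Over 28 adipocyte markers, all tested, the log2 of the summed level was 17.20 to 17.21 on the WT arrays and 16.64 to 16.66 on the G609G arrays and was exceeded only by the epididymis list in WT and by the muscle list in G609G. Over 83 tested skeletal muscle genes it was 13.70 to 13.76 in WT and 16.81 to 16.90 in G609G, and 13.84 to 13.91 in LCS. Over 89 tested genes of epididymis and testis it was 17.21 to 17.25 in WT and 15.61 to 15.68 in G609G, and 16.85 to 16.86 in LCS, while 74 more of that list lay under the filter on dim genes. Of the muscle list 74 genes rose, and of the epididymis and testis list 46 fell and 2 rose. Muscle transcripts were thus higher and epididymal transcripts lower on the same 3 arrays that all changes below rest on, and their part in those changes was not tested. Fewer cells of a type and less RNA per cell cannot be told apart in such bulk samples. 

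**Figure D2:**
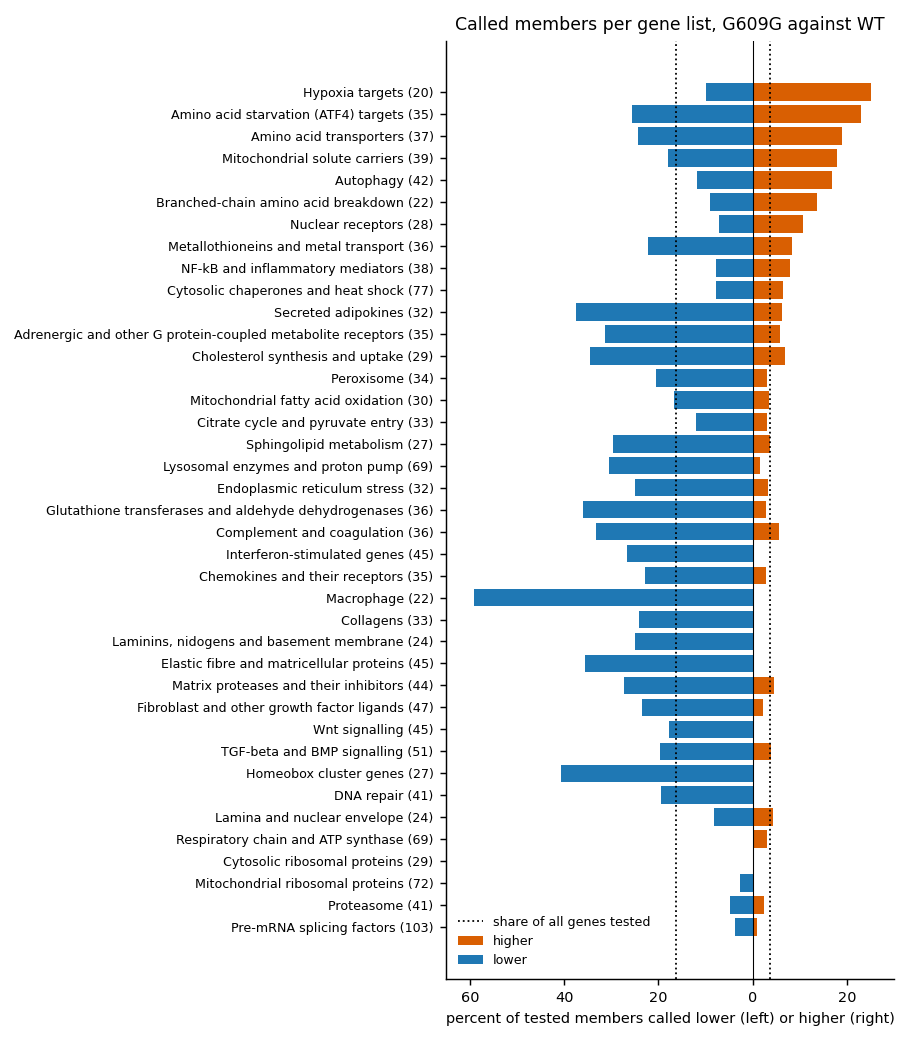
Percent of the tested members of 39 gene lists (number in brackets; the muscle and the epididymis and testis lists are not drawn) that were called lower (left, blue) or higher (right, orange) in G609G against WT. Dotted lines mark the share of all genes tested, 16.2% lower and 3.69% higher; of the lists drawn, hypoxia and ATF4 targets reach furthest right and macrophage genes furthest left.

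Fbxo32, the FoxO-driven ubiquitin ligase known as atrogin-1, read 7.92, 7.75 and 8.01 in WT and 11.46, 11.47 and 11.55 in G609G. All 3 G609G arrays lay far above all 3 WT arrays, with a log2 fold of 3.60 as deposited or 4.06 relative to the median gene (SE 0.05, adjusted p = 3.00e-14). Ddit4, an inhibitor of the growth kinase mTORC1, read 8.51, 8.57 and 8.77 in WT and 11.22, 11.23 and 11.32 in G609G, a log2 fold of 2.64 as deposited or 3.10 relative to the median gene (SE 0.05, adjusted p = 2.37e-13). Sesn1, a stress-induced sestrin that also restrains mTORC1, rose by 2.69 relative to the median gene. The groups were apart for each of these, and Fbxo32 is also on the muscle list.

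In the autophagy list 7 of 42 tested genes rose and 5 fell, or 16.7% and 11.9%, with a median log2 fold of 0.18 relative to the median gene. Besides Ddit4 and Sesn1, those that rose were Ulk1 (1.25), the kinase that starts autophagy, the membrane proteins Atg9a (1.25) and Atg2a (1.17), Gabarapl1 (1.43), which coats the autophagosome, and the mitophagy receptor Bnip3 (1.22), each as a log2 fold relative to the median gene. Gabarapl1 read 10.73, 10.80 and 10.78 in WT and 11.73, 11.74 and 11.73 in G609G, with no overlap between the groups. Its relative Map1lc3b had a deposited log2 fold of 0.55, just short of the threshold, and passed it without WT replicate 3 or without G609G replicate 1. The cargo receptor Sqstm1 stood at 0.20 as deposited and 0.66 relative, and Becn1 at -0.31 and 0.16, so neither was called. Those that fell were the protease Atg4c (-1.21), Atg10 (-1.11), the sestrin Sesn3 (-1.03), the lysosomal transcription factor Tcfe3, now Tfe3 (-0.99), and Ulk2 (-0.63, or -0.56 and not called without G609G replicate 1). Members of 1 family therefore went opposite ways: Ulk1 and Ulk2, and Sesn1 and Sesn3.

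Fam134b, now Retreg1, the receptor for autophagy of the endoplasmic reticulum, read 7.92, 8.27 and 8.07 in WT and 11.41, 11.43 and 11.46 in G609G. Its log2 fold was 3.34 as deposited or 3.81 relative to the median gene (SE 0.07, adjusted p = 6.32e-13), one of the 20 largest rises outside the muscle and the epididymis lists. Trp53inp1, a p53 target that binds autophagosome proteins, rose by 3.38 relative to the median gene. Klf15, a Kruppel-like factor of fasting and of glucocorticoid action, rose with 1.65 as deposited or 2.12 relative to the median gene (SE 0.06, adjusted p = 2.77e-11), the only called member of 13 tested Kruppel-like factors. Foxo1, the insulin-restrained factor itself, read 9.59, 9.44 and 9.58 in WT and 10.28, 10.24 and 10.29 in G609G and rose with 0.74 as deposited or 1.20 relative to the median gene (SE 0.04, adjusted p = 1.14e-10). It was the only riser among 38 insulin signalling genes. The count was 3 without WT replicate 3 and 2 without G609G replicate 1 or G609G replicate 2, where the glucose transporter Slc2a4 was called as well. Foxo3 was not called (0.32 as deposited, 0.79 relative). In the same list the adipocyte docking protein Irs3 (-1.58), the adaptor Grb14 (-1.25) and Tsc2 (-0.70), an mTORC1 inhibitor, fell, while the insulin receptor Insr stood at -0.06 as deposited and 0.40 relative and was not called.

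Among 78 F-box and tripartite motif ligases 3 rose and 12 fell, shares of 3.85% and 15.4%, near those of all genes. Fbxo31, an F-box protein of the DNA damage response, read 8.53, 8.52 and 8.48 in WT and 10.52, 10.53 and 10.59 in G609G (log2 fold 2.04 as deposited or 2.50 relative to the median gene, SE 0.04, adjusted p = 2.37e-13). Of the 3, Fbxo32 and Trim54 are also on the muscle list and Fbxo31 is not. In the proteasome 1 of 41 subunits and partners rose and 2 fell, 2.44% and 4.88%. The count of rises was 0 without WT replicate 1, G609G replicate 2 or G609G replicate 3. The count of falls was 1 without WT replicate 3, G609G replicate 1 or G609G replicate 3. The median was 0.26 relative to the median gene and -0.20 as deposited.

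Amino acid carriers changed in both directions. Of 37 tested amino acid transporters 7 rose and 9 fell, 18.9% and 24.3%. Slc38a2, the system A carrier known to be induced by amino acid shortage, read 9.34, 9.31 and 9.45 in WT and 11.02, 11.04 and 11.10 in G609G. The log2 fold was 1.69 as deposited or 2.15 relative to the median gene (SE 0.03, adjusted p = 4.48e-14). Slc43a1 and Slc7a8, carriers of leucine and other large neutral amino acids, rose with log2 folds of 2.47 and 2.19 relative to the median gene, while the cationic carrier Slc7a2 rose with 2.84. Slc7a8 read 9.50, 9.54 and 9.70 in WT and 11.23, 11.29 and 11.39 in G609G. The taurine carrier Slc6a6 (1.38) and the system A and N members Slc38a4 (1.28) and Slc38a3 (1.13) completed the 7.

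The other leucine exchanger, Slc7a5, fell (10.79, 10.79 and 10.77 in WT and 9.01, 8.94 and 9.10 in G609G; log2 fold -1.77 as deposited or -1.30 relative to the median gene, SE 0.04, adjusted p = 3.42e-11), and its partner chain Slc3a2 was not called (0.28 as deposited, 0.74 relative). The cystine carrier Slc7a11 read 8.06, 8.01 and 8.14 in WT and 5.70, 5.73 and 5.99 in G609G, a log2 fold of -2.26 as deposited or -1.80 relative to the median gene (SE 0.08, adjusted p = 1.46e-09). Slc38a5 had the largest fall of any gene outside the 2 excluded lists: it read 12.61, 12.57 and 12.58 in WT and 5.99, 6.25 and 5.87 in G609G, a log2 fold of -6.55 as deposited or -6.09 relative to the median gene (SE 0.08, adjusted p = 3.99e-14). The GABA carrier Slc6a13 (-2.73), the glutamate carrier Slc1a1 (-2.40), the adipocyte serine and alanine carrier Slc7a10 (-0.95), Slc7a7, Slc38a6 and Slc1a5 also fell.

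ATF4 is the transcription factor of the amino acid response. Of 35 tested genes of its target list, which also counts Atf4, 8 rose and 9 fell, or 22.9% and 25.7%, with Atf4 among the 8. Atf4 itself read 9.78, 9.75 and 9.82 in WT and 10.54, 10.46 and 10.59 in G609G (log2 fold 0.74 as deposited or 1.21 relative to the median gene, SE 0.04, adjusted p = 7.25e-11). Chac1, which degrades glutathione and whose promoter is printed above, read 8.80, 8.80 and 9.03 in WT and 10.30, 10.33 and 10.34 in G609G, a log2 fold of 1.45 as deposited or 1.91 relative to the median gene (SE 0.05, adjusted p = 4.03e-12). Cbs of transsulfuration (1.57), the alanine transaminase Gpt2 (1.46), Cebpb (1.54) and Atf3 (1.15) rose too, together with Ddit4 and Slc38a2. Atf3 lost its call without WT replicate 1 (0.95) or G609G replicate 3 (1.04).

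Of the 9 ATF4 targets that fell, 4 act in serine and one-carbon synthesis. Phgdh, the first enzyme of serine synthesis, read 10.15, 10.12 and 10.21 in WT and 6.86, 7.51 and 7.28 in G609G and fell with -2.94 as deposited or -2.48 relative to the median gene (SE 0.12, adjusted p = 2.14e-09). Psat1, the next enzyme, fell (-0.63), as did the mitochondrial folate enzymes Mthfd2 (-0.80) and Shmt2 (-0.61, or -0.58 and not called without G609G replicate 2). The last serine enzyme, Psph, was at -0.45 as deposited and 0.01 relative, and the asparagine synthetase Asns at -0.50 and -0.03, so neither was called. The tryptophanyl-tRNA synthetase Wars fell (-1.13), the only called member among 32 tested aminoacyl-tRNA synthetases.

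**Figure D3:**
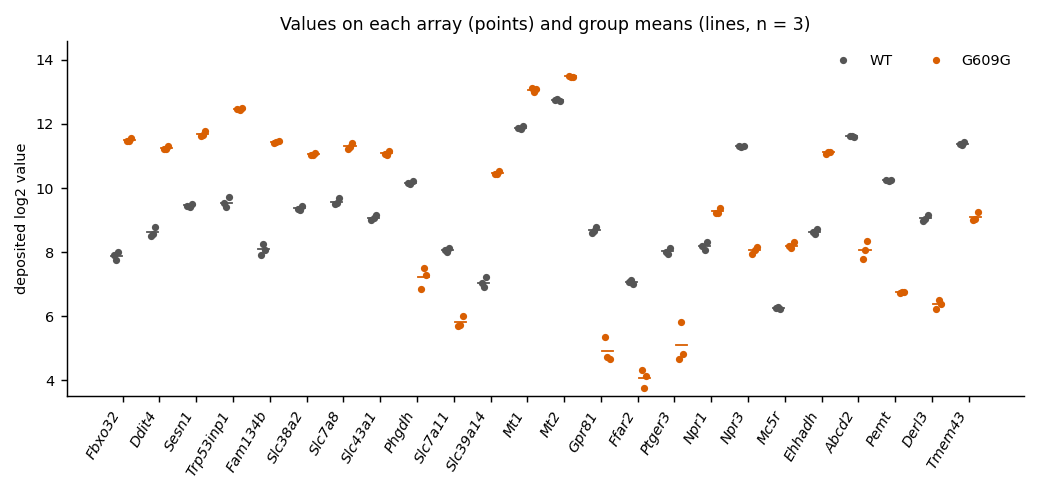
Deposited log2 value (vertical axis) of 24 genes on each WT array (grey) and each G609G array (orange), with a line at the mean of the 3 arrays. The groups do not overlap for any of the 24; Ptger3 has the widest spread in G609G, from 4.67 to 5.82.

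The breakdown of branched-chain amino acids was touched at several steps. Of 22 tested genes 3 rose and 2 fell (13.6% and 9.09%). Bcat2, the mitochondrial transaminase of the first step, read 9.91, 9.88 and 10.01 in WT and 10.79, 10.70 and 10.72 in G609G and rose with 0.80 as deposited or 1.27 relative to the median gene (SE 0.04, adjusted p = 9.84e-11). Dbt, a subunit of the branched-chain dehydrogenase, rose (1.11, but 1.06 and not called without G609G replicate 3), and Hsd17b10 of isoleucine breakdown rose (1.23). The other dehydrogenase subunits Bckdha (0.32 as deposited, 0.78 relative) and Bckdhb (0.23 and 0.70) were not called. Further down, Mccc1 of leucine (-0.69) and Pcca of propionate (-0.71) fell. Hpd, a tyrosine-breaking dioxygenase known mainly from liver, read 5.20, 5.25 and 5.28 in WT and 8.42, 8.50 and 8.76 in G609G (log2 fold 3.32 as deposited or 3.78 relative to the median gene, SE 0.09, adjusted p = 3.16e-12).

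The metallothioneins Mt1 and Mt2 rose, while Mt3 was not called (0.14 as deposited, 0.60 relative). Mt1 read 11.86, 11.84 and 11.93 in WT and 13.12, 12.99 and 13.08 in G609G, a log2 fold of 1.19 as deposited or 1.65 relative to the median gene (SE 0.03, adjusted p = 1.03e-12). Mt2 read 12.75, 12.78 and 12.73 in WT and 13.51, 13.47 and 13.48 in G609G, a log2 fold of 0.73 as deposited or 1.20 relative to the median gene (SE 0.04, adjusted p = 3.68e-11). The groups were apart for both. The zinc and iron importer Slc39a14 had a larger fold: it read 7.04, 6.90 and 7.22 in WT and 10.44, 10.43 and 10.53 in G609G, a log2 fold of 3.41 as deposited or 3.88 relative to the median gene (SE 0.07, adjusted p = 5.79e-13), or 10.7 times higher as deposited. These were the 3 risers among 36 genes of metal handling, of which 8 fell, shares of 8.33% and 22.2%. The iron regulators Hfe (-1.51) and Aco1 (-1.05) and the metalloreductase Steap4 (-1.23) were among the 8.

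Of 35 tested adrenergic and metabolite receptor genes 2 rose and 11 fell, 5.71% and 31.4%, and 22 were not called. None of the called genes was an adrenergic receptor gene. Gpr81, now Hcar1, the lactate receptor of fat cells, read 8.61, 8.67 and 8.77 in WT and 5.35, 4.73 and 4.67 in G609G, a log2 fold of -3.77 as deposited or -3.30 relative to the median gene (SE 0.15, adjusted p = 1.50e-09). Gpr109a, now Hcar2, the receptor for the ketone body beta-hydroxybutyrate and for niacin, read 7.58, 7.39 and 7.53 in WT and 5.10, 4.93 and 4.96 in G609G (log2 fold -2.51 as deposited or -2.04 relative to the median gene, SE 0.09, adjusted p = 1.71e-09). Ptger3, a receptor for prostaglandin E2, read 8.0, 7.93 and 8.13 in WT and 4.67, 5.82 and 4.83 in G609G (log2 fold -2.91 as deposited or -2.45 relative to the median gene, SE 0.22, adjusted p = 1.07e-06). Ffar2, a receptor for short-chain fatty acids, read 7.06, 7.12 and 7.02 in WT and 4.33, 3.75 and 4.14 in G609G (log2 fold -2.99 as deposited or -2.53 relative to the median gene, SE 0.15, adjusted p = 2.61e-08). All 4 are known to couple to the inhibitory G protein, and all 4 had no overlap between groups. In G609G the means of Gpr81, Gpr109a and Ffar2 lay under the filter on dim genes, a log2 value of 5.09, so their folds may be understated.

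The natriuretic peptide receptors split. Npr1, the signalling receptor that raises cyclic GMP, read 8.20, 8.07 and 8.32 in WT and 9.22, 9.22 and 9.39 in G609G and rose with 1.08 as deposited or 1.54 relative to the median gene (SE 0.05, adjusted p = 1.25e-10). Npr3, which clears the peptides, read 11.30, 11.28 and 11.31 in WT and 7.95, 8.06 and 8.15 in G609G and fell with -3.24 as deposited or -2.78 relative to the median gene (SE 0.04, adjusted p = 4.74e-14). Npr2 was at -0.57 as deposited and -0.10 relative and was not called. Mc5r, a melanocortin receptor coupled to the stimulatory G protein, read 6.25, 6.27 and 6.22 in WT and 8.18, 8.13 and 8.30 in G609G, a log2 fold of 1.96 as deposited or 2.42 relative to the median gene (SE 0.07, adjusted p = 3.74e-11), while Mc2r, the ACTH receptor, was not called (0.33 and 0.79). Npr1 and Mc5r were the 2 risers of the receptor list, and the other 6 that fell were Lpar4 (-1.57), P2ry6 (-1.50), P2ry12 (-0.66), P2ry5, S1pr3 and the ligand Insl6.

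Of 32 tested secreted adipokines 2 rose and 12 fell, 6.25% and 37.5%, and 18 were not called. The satiety hormone leptin had the lowest fold of the list (-5.41 for Lep). Sfrp5, a secreted Wnt antagonist of adipocytes, read 10.02, 9.92 and 10.18 in WT and 5.47, 6.12 and 5.49 in G609G (log2 fold -4.35 as deposited or -3.88 relative to the median gene, SE 0.14, adjusted p = 1.88e-10). Nrg4, an adipocyte growth factor that acts on the liver, read 8.83, 8.94 and 9.08 in WT and 6.21, 6.54 and 6.87 in G609G (log2 fold -2.41 as deposited or -1.95 relative to the median gene, SE 0.11, adjusted p = 1.72e-08). The acute-phase proteins Orm1 (-2.86), Saa3 (-2.12) and Lcn2 (-1.25) fell too, and Orm1 and Saa3 belong to families of near-identical copies whose signals probe sets may share. Nampt, the enzyme and secreted protein of NAD salvage, read 9.64, 9.66 and 9.63 in WT and 11.24, 11.38 and 11.35 in G609G and rose with 1.68 as deposited or 2.14 relative to the median gene (SE 0.04, adjusted p = 1.05e-12). Agt, angiotensinogen, read 11.57, 11.59 and 11.58 in WT and 12.66, 12.63 and 12.63 in G609G and rose with 1.06 as deposited or 1.52 relative to the median gene (SE 0.03, adjusted p = 1.94e-12). Adiponectin, Adipoq, stood at -0.81 as deposited and -0.34 relative and was not called.

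Cholesterol synthesis showed 10 falls and 2 rises among 29 tested genes, 34.5% and 6.9%, with a median log2 fold of -0.37 relative to the median gene. The 2 rises were single steps of the pathway. Pmvk, phosphomevalonate kinase, read 7.30, 7.35 and 7.24 in WT and 9.31, 9.23 and 9.42 in G609G (log2 fold 2.02 as deposited or 2.49 relative to the median gene, SE 0.07, adjusted p = 1.54e-11). Cyp51, the lanosterol demethylase, read 8.14, 8.16 and 8.31 in WT and 9.09, 9.12 and 9.28 in G609G (log2 fold 0.96 as deposited or 1.42 relative to the median gene, SE 0.05, adjusted p = 2.19e-10). Steps on either side fell, among them Hmgcs1 (-0.64), Sqle (-1.05), Nsdhl (-1.17), Sc5d (-0.77) and Dhcr7 (-0.75), with the regulator Srebf1 (-0.76). The related regulator Srebf2 was 1.72 times lower as deposited and 1.25 times lower relative to the median gene, and was not called. Idi1, Mvk and Lss were also called lower, but each lost its call without G609G replicate 1 (Idi1 -0.55, Lss -0.55) or G609G replicate 3 (Mvk -0.55), and Lss also without WT replicate 3 (-0.58) or G609G replicate 2 (-0.54).

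**Figure D4:**
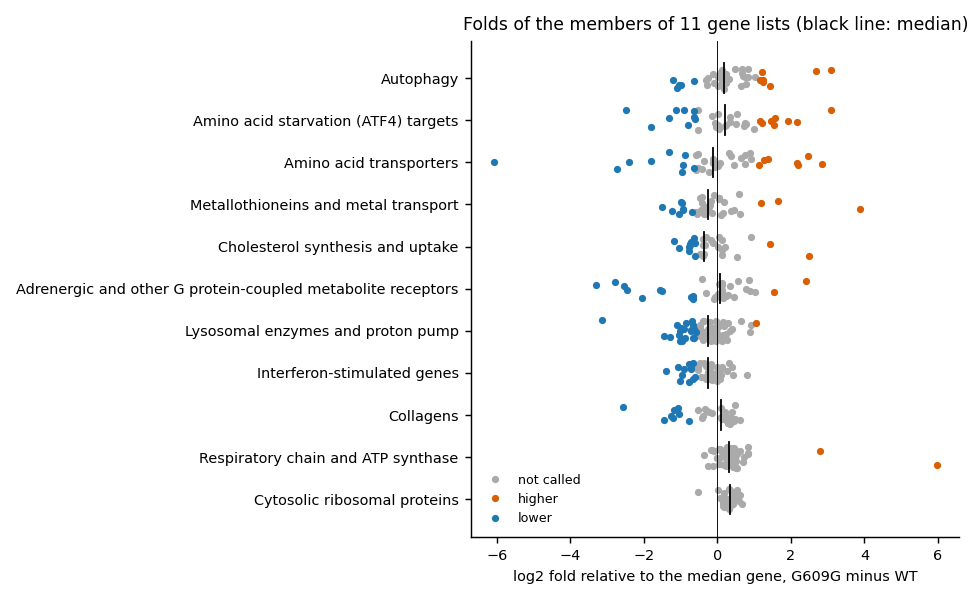
Log2 fold relative to the median gene (horizontal axis) of every tested member of 11 gene lists, 1 point a gene, orange where called higher, blue where called lower and grey where not called, with the list's median as a black line. Amino acid transporters run from -6.09 to 2.84, while the cytosolic ribosomal proteins lie together around a median of 0.33 with no call.

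Of 19 tested lipid droplet coat genes 2 rose and 5 fell, 10.5% and 26.3%, and 12 were not called. Cav1, a coat protein of caveolae, the membrane pits that cover much of a fat cell's surface, read 12.65, 12.68 and 12.66 in WT and 11.27, 11.28 and 11.38 in G609G, a log2 fold of -1.35 as deposited or -0.89 relative to the median gene (SE 0.03, adjusted p = 1.11e-10). Cav2 (-1.23), Ptrf, now Cavin1 (-0.88), and Prkcdbp, now Cavin3 (-1.16), fell as well, but Sdpr, now Cavin2, was at 0.09 as deposited and 0.55 relative and was not called. Cav2 had the lowest fold of the list, which thus holds genes of caveolae beside those of the droplet. The lipid droplet coat protein Plin, now Plin1, fell (-1.09), as did the glycerol channel Aqp7 (-1.22) and the triglyceride enzyme Dgat2 (-2.39). The droplet protein 1110028A07Rik, now Fitm1, known from muscle, rose (3.17).

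Peroxisome genes held 1 rise and 7 falls among 34 tested, 2.94% and 20.6%, near the shares of all genes. Ehhadh, the bifunctional enzyme of peroxisomal beta-oxidation, read 8.63, 8.55 and 8.73 in WT and 11.08, 11.14 and 11.14 in G609G, a log2 fold of 2.48 as deposited or 2.94 relative to the median gene (SE 0.04, adjusted p = 3.00e-14). Abcd2, the adipocyte carrier of very long-chain acyl-CoA, read 11.63, 11.61 and 11.60 in WT and 7.79, 8.07 and 8.35 in G609G, a log2 fold of -3.54 as deposited or -3.08 relative to the median gene (SE 0.09, adjusted p = 2.99e-11). Acox3 (-0.72) and Hsd17b4 (-0.85), which act beside Ehhadh, fell as well. In mitochondrial fatty acid oxidation Pdk4, the kinase that closes pyruvate entry, read 10.91, 10.89 and 10.99 in WT and 12.45, 12.42 and 12.50 in G609G (log2 fold 1.53 as deposited or 1.99 relative to the median gene, SE 0.03, adjusted p = 2.67e-14), while the carnitine transferase Cpt1a (-1.20), Acads (-0.79) and Oxct1 (-0.94) of ketone use fell; 5 of 30 fell in all, 16.7%, close to the share of all genes.

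Of 30 phospholipid synthesis genes 2 rose and 3 fell, 6.67% and 10%, and 25 were not called. Pemt, which methylates phosphatidylethanolamine to phosphatidylcholine, read 10.25, 10.22 and 10.24 in WT and 6.72, 6.75 and 6.76 in G609G, a log2 fold of -3.49 as deposited or -3.03 relative to the median gene (SE 0.06, adjusted p = 1.67e-12). Lpin1, the phosphatidate phosphatase induced by fasting, read 11.14, 11.08 and 11.16 in WT and 12.33, 12.28 and 12.26 in G609G and rose with 1.16 as deposited or 1.63 relative to the median gene (SE 0.04, adjusted p = 1.98e-12). Crls1, cardiolipin synthase, rose (1.19). Among 27 sphingolipid genes 8 fell, 29.6%, including the ceramide synthase Lass4, now Cers4 (-1.09), and the sphingomyelinase Smpd3 (-1.03). Apoc3, which restrains lipoprotein lipase and is known mainly from liver, read 7.45, 7.43 and 7.55 in WT and 10.72, 10.76 and 10.71 in G609G, a log2 fold of 3.25 as deposited or 3.72 relative to the median gene (SE 0.11, adjusted p = 3.98e-11). Both enzymes of creatine synthesis fell: Gatm read 8.17, 8.47 and 8.55 in WT and 6.51, 6.0 and 6.26 in G609G (log2 fold -2.14 as deposited or -1.68 relative to the median gene, SE 0.12, adjusted p = 1.20e-07), and Gamt, which follows it, read 10.87, 10.85 and 10.97 in WT and 8.67, 8.45 and 8.83 in G609G (log2 fold -2.25 as deposited or -1.79 relative to the median gene, SE 0.06, adjusted p = 2.12e-10). The creatine carrier Slc6a8 (-0.02 as deposited, 0.44 relative) and the kinase Ckb (-0.43 and 0.03) were not called.

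Carriers of the inner mitochondrial membrane changed in both directions. Of 39 tested Slc25 carriers 7 rose and 7 fell, 17.9% each way, against 3.69% and 16.2% of all genes. The share of falls was thus near that of all genes. Slc25a33, a pyrimidine nucleotide carrier, read 6.02, 6.03 and 6.33 in WT and 8.04, 8.20 and 8.47 in G609G (log2 fold 2.11 as deposited or 2.57 relative to the median gene, SE 0.10, adjusted p = 4.40e-10). Slc25a25, an ATP-magnesium carrier (2.10), Slc25a42, a coenzyme A carrier (1.79), the aspartate and glutamate carrier Slc25a12 (1.62) and Mcart1, now Slc25a51, the NAD carrier (1.53), rose as well. The dicarboxylate carrier Slc25a10 (-1.44) and the citrate carrier Slc25a1 (-0.64), which feed lipid synthesis, fell.

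Of 29 cytosolic ribosomal proteins 0 were called by limma under both scalings, with 1 higher and 1 lower at an unadjusted p under 0.05 under both and 1 lower by the methods' t-test as deposited. Of 69 respiratory chain genes 2 rose, 2.9%. Both risers, Cox6a2 (5.98) and Cox8b (2.79), are on the muscle list. Of 72 mitochondrial ribosomal proteins 2 fell, 2.78%, and of 103 splicing factors 1 rose and 4 fell, 0.971% and 3.88%. The median log2 folds of these lists lay between 0.17 and 0.33 relative to the median gene and between -0.29 and -0.13 as deposited, so their direction turns with the scaling. Without WT replicate 1 or G609G replicate 3, 1 cytosolic ribosomal protein was called lower.

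The chaperones that rose were mostly small heat shock proteins. The list of cytosolic chaperones also holds members of the endoplasmic reticulum and of mitochondria. Of its 77 tested genes 5 rose and 6 fell, 6.49% and 7.79%. Of the 5 risers Dnajb5 had the largest log2 fold relative to the median gene (2.04). The other 4 were small heat shock proteins: Hspb7 (1.86), Hspb6 (1.58), Hspb8 (1.44) and Hspb1 (1.19). Hspb8, which works with Bag3 in chaperone-assisted autophagy, read 8.89, 8.76 and 8.93 in WT and 9.73, 9.78 and 10.01 in G609G, while Bag3 was not called (0.38 as deposited, 0.84 relative). Hspb6 and Hspb7 are known from muscle as well, and 2 of the 5 are on the muscle list. Of 32 genes of endoplasmic reticulum stress 8 fell, 25%, and 1 rose. Derl3, of the channel that exports misfolded proteins, read 8.97, 9.04 and 9.16 in WT and 6.22, 6.50 and 6.39 in G609G (log2 fold -2.69 as deposited or -2.22 relative to the median gene, SE 0.07, adjusted p = 3.75e-11). Pdia4 (-1.21), Creld2 (-0.90), Edem1 (-0.76), Hyou1 (-0.66) and Pdia6 (-0.64), all folding or quality control proteins, fell too. The main lumenal chaperone Hspa5 stood at -0.45 as deposited and 0.01 relative and was not called. The riser was Myd116, now Ppp1r15a, which reverses the translation block of the stress response (6.90, 6.84 and 6.97 in WT and 8.14, 8.10 and 8.46 in G609G; log2 fold 1.33 as deposited or 1.79 relative to the median gene, SE 0.08, adjusted p = 1.93e-09).

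Lysosomal genes fell in 21 of 69 cases, 30.4%. Atp6v0d2, a proton pump subunit, read 9.06, 9.07 and 9.07 in WT and 5.45, 5.10 and 5.82 in G609G (log2 fold -3.61 as deposited or -3.15 relative to the median gene, SE 0.12, adjusted p = 4.40e-10). The cathepsins Ctsb (-0.91) and Ctsd (-0.66) and the glycan-degrading enzymes Naglu (-1.11), Gusb (-1.0) and Sgsh (-0.98) were among the others. The cholesterol exporter Npc1 was the only riser (1.06), and it was not called without WT replicate 2 (1.04). Macrophage markers fell in 13 of 22 cases, 59.1%, and the log2 of their summed level was 13.71 to 13.82 in WT and 12.63 to 12.82 in G609G. The part of macrophage number or of epididymal tissue in the lysosomal falls was not tested.

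Of 45 interferon-stimulated genes 12 fell, 26.7%, including the transcription factors Irf7 (-1.01), Irf9 (-0.66) and Stat2 (-0.65). Cxcl9, a chemokine induced by interferon gamma, read 9.87, 9.81 and 9.99 in WT and 5.38, 5.45 and 6.05 in G609G (log2 fold -4.26 as deposited or -3.80 relative to the median gene, SE 0.12, adjusted p = 7.46e-11), and Ido1, the tryptophan-degrading enzyme that the epididymis is also known for, read 11.28, 11.23 and 11.17 in WT and 6.29, 6.58 and 7.02 in G609G (log2 fold -4.60 as deposited or -4.14 relative to the median gene, SE 0.12, adjusted p = 3.27e-11). The log2 of the summed level of T, B and natural killer cell markers was 10.09 to 10.21 in WT and 9.27 to 9.41 in G609G, and their part in these falls was not tested. Of 36 complement and coagulation genes 12 fell, 33.3%, and 2 rose. Those that fell included C6 (-1.89), Cfb (-1.51), C4b (-0.77) and the receptor C3ar1 (-1.57), whereas C3 itself was at 0.01 as deposited and 0.47 relative and was not called. Of 38 NF-kB and inflammatory genes 3 rose and 3 fell, 7.89% each way. Ptgs2, the inducible cyclooxygenase, read 8.77, 8.78 and 8.93 in WT and 10.74, 10.83 and 10.82 in G609G and rose with 1.97 as deposited or 2.43 relative to the median gene (SE 0.04, adjusted p = 3.90e-13), and the NF-kB inhibitor Nfkbia rose (1.70), while Saa3, Lcn2 and the receptor Tlr4 (-0.97) fell. Cxcl13, the B cell chemokine, was the only riser among 35 chemokine and receptor genes, of which 8 fell, 22.9% (7.12, 7.24 and 7.20 in WT and 8.32, 8.33 and 8.43 in G609G; log2 fold 1.18 as deposited or 1.64 relative to the median gene, SE 0.06, adjusted p = 1.10e-10).

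Of 33 tested collagens 8 fell, 24.2%. All 3 tested chains of collagen VI, the microfibrillar collagen around fat cells, were among them. Col6a3 read 7.93, 7.93 and 7.94 in WT and 6.29, 6.42 and 6.06 in G609G (log2 fold -1.68 as deposited or -1.21 relative to the median gene, SE 0.09, adjusted p = 1.69e-07), and Col6a1 (-1.08) and Col6a2 (-1.17) fell by like amounts. Col15a1 had the lowest fold of the list (-2.57). The fibrillar chains Col1a1 (-1.05), Col1a2 (-0.78) and Col3a1 (-1.45) fell too, while the basement membrane chains Col4a1 (-0.33) and Col4a2 (-0.27) did not pass the fold threshold relative to the median gene. Other basement membrane genes did fall. Of 24 tested laminins, nidogens and other basement membrane genes 6 fell, 25%, and 0 rose. Lama4 was 3.35 times and Nid1 2.16 times lower relative to the median gene. Among elastic fibre and matricellular genes 16 of 45 fell, 35.6%, with the fibrillin Fbn1 (-1.55), the fibulin Fbln5 (-1.17), the crosslinking enzymes Loxl1 (-1.18) and Loxl2 (-1.25) and the proteoglycan Prelp (-2.04). The matrix protease Adamts1 rose (8.10, 8.06 and 8.32 in WT and 9.14, 9.19 and 9.23 in G609G; log2 fold 1.03 as deposited or 1.49 relative to the median gene, SE 0.06, adjusted p = 2.96e-10) while Adamts5 fell (-1.40).

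Growth factor genes fell in 11 of 47 cases, 23.4%, and the receptor gene Fgfr2 was the only riser. Fgf10, a growth factor of fat precursors, read 7.71, 7.70 and 7.78 in WT and 5.12, 5.54 and 5.56 in G609G (log2 fold -2.32 as deposited or -1.86 relative to the median gene, SE 0.10, adjusted p = 1.08e-08). Fgf1 (-1.20) and Fgf2 (-1.07) fell as well. Fgfr2 read 8.02, 8.16 and 8.30 in WT and 9.20, 9.33 and 9.39 in G609G and rose with 1.15 as deposited or 1.61 relative to the median gene (SE 0.06, adjusted p = 2.22e-10), while Fgfr1 (0.33 as deposited, 0.80 relative) and Fgfr3 (-0.04 and 0.42) were not called. In the growth hormone and IGF axis Igfbp3, the main carrier of IGF in blood, rose (3.24), and its partner Igfals read 7.70, 7.52 and 7.24 in WT and 5.23, 5.11 and 5.67 in G609G (log2 fold -2.15 as deposited or -1.69 relative to the median gene, SE 0.15, adjusted p = 8.48e-07). The growth hormone receptor Ghr (-0.96) and Igfbp5 (-1.02) fell, and Igf1 was at -0.07 as deposited and 0.39 relative and was not called. Among 51 TGF-beta and BMP genes 2 rose and 10 fell, 3.92% and 19.6%, near the shares of all genes, with falls of Bmp7 (-1.54) and Tgfb1 (-0.93). The Wnt list held 8 falls of 45, 17.8%, near the share of all genes, and 3 of them were secreted antagonists: Sfrp5, Sfrp4 (-1.79) and Sfrp2 (-0.66).

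Hox genes fell in 11 of 27 tested cases, 40.7%, and by cluster. In the Hoxb cluster 6 of 9 fell and in the Hoxc cluster 3 of 5, with median log2 folds of -0.74 and -1.08 relative to the median gene. In the Hoxa cluster 0 of 8 were called by limma, with a median of 0.21, or -0.26 as deposited. At an unadjusted p under 0.05, 4 of the 8 were higher relative to the median gene and 4 lower as deposited, and 0 went the same way under both scalings. In the Hoxd cluster 2 of 5 fell. Hoxc8 read 11.37, 11.33 and 11.52 in WT and 9.21, 9.43 and 9.72 in G609G, a log2 fold of -1.95 as deposited or -1.49 relative to the median gene (SE 0.08, adjusted p = 1.17e-08). Hoxb9 read 7.47, 7.52 and 7.78 in WT and 5.68, 5.85 and 5.85 in G609G, a log2 fold of -1.80 as deposited or -1.33 relative to the median gene (SE 0.08, adjusted p = 2.88e-08). Within Hoxb the fold went from -0.05 at Hoxb1 and -0.37 at Hoxb2 to -1.23 at Hoxb8, with Hoxb6 (-0.66) off that order. The calls nearest the threshold moved with single arrays: Hoxd9 (-0.59) was not called without WT replicate 3 (-0.56) or G609G replicate 1 (-0.53), nor in the fit on the 6 arrays alone (-0.58), with or without the replicate block, and Hoxb3 (-0.54) was called without G609G replicate 1 (-0.66). Hoxd10 (0.52 as deposited, 0.98 relative) was called higher without WT replicate 2 or G609G replicate 2.

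**Figure D5:**
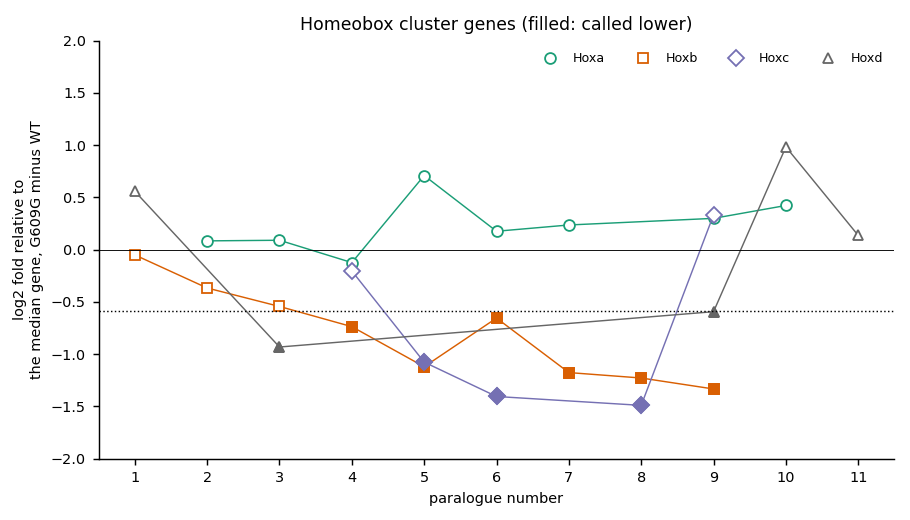
Log2 fold relative to the median gene in G609G minus WT (vertical axis) for 27 homeobox genes by paralogue number (horizontal axis), with 1 symbol and colour per cluster; filled symbols were called lower and the dotted line is the 1.5-fold threshold. Hoxb and Hoxc genes 5 to 8 lie below the line, and all 8 Hoxa genes lie above it.

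The T-box factor Tbx15, another gene that marks fat depots and that muscle also expresses, read 4.01, 3.91 and 3.74 in WT and 7.70, 7.81 and 8.28 in G609G, a log2 fold of 4.04 as deposited or 4.51 relative to the median gene (SE 0.15, adjusted p = 8.57e-11), with the WT mean under the filter on dim genes. The orphan nuclear receptors Nr4a3 (4.89) and Nr4a1 (1.32) rose. Rora, a receptor of the clock, rose (1.45).

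Lmna itself read 7.90, 7.75 and 7.84 in WT and 7.14, 7.32 and 7.22 in G609G, a log2 fold of -0.60 as deposited or -0.14 relative to the median gene (SE 0.08, adjusted p = 0.151), and was not called; this value summarises the gene's probe sets and does not separate progerin from lamin A or C. Of 24 tested genes of the lamina and envelope 1 rose and 2 fell, 4.17% and 8.33%. Unc84b, now Sun2, which ties the lamina to the cytoskeleton, read 8.63, 8.60 and 8.70 in WT and 9.37, 9.40 and 9.54 in G609G (log2 fold 0.79 as deposited or 1.26 relative to the median gene, SE 0.04, adjusted p = 5.72e-11), while Unc84a, now Sun1, was at 0.08 as deposited and 0.54 relative and was not called. Tmem43, an inner membrane protein that binds lamins, read 11.37, 11.35 and 11.45 in WT and 9.01, 9.02 and 9.25 in G609G, a log2 fold of -2.30 as deposited or -1.83 relative to the median gene (SE 0.04, adjusted p = 4.10e-12). Syne2 was called lower (-0.59) but not without G609G replicate 1 (-0.53), which leaves 1 fall in the list, nor in the fit on the 6 arrays alone (-0.58), with or without the replicate block. Emd, Lbr, Banf1, Tmpo and Zmpste24 were not called, with log2 folds from -0.25 to 0.62 relative to the median gene. DNA repair genes fell in 8 of 41 cases, 19.5%, near the share of all genes, led by Rad50 (-1.15) and Prkdc (-0.98). Of 36 cell cycle inhibitors and apoptosis genes 2 rose and 2 fell, 5.56% each way. The risers were the cell cycle inhibitor Cdkn1a (3.08) and the survival protein Bcl2l1 (1.34), and the senescence marker Cdkn2a was not called (-0.13 as deposited, 0.33 relative).

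Hypoxia targets held the highest share of rises among the lists shown, 5 of 20 or 25%. They were Egln3 (7.85, 7.85 and 7.89 in WT and 9.0, 9.12 and 9.09 in G609G; log2 fold 1.21 as deposited or 1.67 relative to the median gene, SE 0.05, adjusted p = 7.97e-11), which hydroxylates HIF, the glucose transporter Slc2a1 (1.26), Bnip3, the glycolytic enzyme Pgk1 (1.18) and the hexokinase Hk2 (1.11). Vegfa, the vessel growth factor, stood at -0.11 as deposited and 0.36 relative and was not called, and the matrix hydroxylase P4ha2 fell (-1.01). Among detoxifying enzymes Cyp2b10, a P450 induced by the xenobiotic receptor CAR, read 4.53, 4.53 and 4.75 in WT and 8.18, 8.01 and 8.43 in G609G (log2 fold 3.61 as deposited or 4.07 relative to the median gene, SE 0.10, adjusted p = 8.56e-12); it has near-identical copies whose signal its probe sets may share. Of 36 glutathione transferases and aldehyde dehydrogenases 13 fell, 36.1%, and 1 rose, the folate enzyme Aldh1l1 (1.59). Of 34 NRF2 targets 3 rose and 4 fell, 8.82% and 11.8%, and 27 were not called. Gclc (1.24) and Hmox1 (1.13) were among the risers, and the extracellular dismutase Sod3 (-1.70) among the falls.

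Outside the muscle and the epididymis lists the 20 largest rises ran from 3.19 to 6.17 and the 20 largest falls from 3.22 to 6.09 in size, relative to the median gene. Klhl38 rose most (4.63, 4.98 and 4.87 in WT and 10.38, 10.61 and 10.60 in G609G; log2 fold 5.70 as deposited or 6.17 relative to the median gene, SE 0.11, adjusted p = 4.68e-13), followed by Klhl31 (5.06), Nr4a3, Tbx15 and Gadd45g (4.48). At least Klhl31, Ankrd23 (4.47), Mypn (4.30), Tmem38a (4.14), Adssl1 (3.19) and Hrc (3.19) are known from muscle although the muscle list did not hold them. Whether Klhl38 and the other large rises come from muscle was not tested. Among the falls, Ovch2 (-5.41), Lipi (-4.60), the mucins Muc5b (-4.31) and Muc15 (-4.12), the ammonium channel Rhcg (-3.69), the tight junction protein Cldn2 (-3.62) and albumin, Alb (-3.64), stood beside the germ cell genes Mael (-3.59) and Ldhc (-3.31). The part of epididymal tissue in these falls was not tested. In LCS against WT, 8 of the 20 largest falls were also called lower and 3 were called higher. Of the 20 largest rises, 3 were also called higher there and 1 was called lower. For 8 of the 20 rises the WT mean, and for 9 of the 20 falls the G609G mean, lay under the filter of 5.09, where a fold may be understated.

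Whether such changes differ from those of the other Lmna allele was tested as G609G minus LCS, which shares the G609G arrays with the comparison above and called 4.36% of all genes higher and 17.3% lower. Its log2 differences are given relative to the median gene. Slc39a14 had an LCS mean of 7.18 ± 0.15 (SD, n = 3) and was higher in G609G than in LCS by 3.78 (SE 0.07, adjusted p = 6.18e-13). Fbxo32 differed by 4.15 (SE 0.05, adjusted p = 2.24e-14), Slc38a2 by 2.09 (SE 0.03, adjusted p = 4.56e-14), Chac1 by 1.51 (SE 0.05, adjusted p = 2.76e-11) and Nampt by 2.25 (SE 0.04, adjusted p = 5.88e-13). Gpr81 differed by -3.61 (SE 0.15, adjusted p = 5.18e-10), Npr3 by -3.60 (SE 0.04, adjusted p = 4.89e-15) and Col6a3 by -2.04 (SE 0.09, adjusted p = 1.13e-09), all lower in G609G. In the Hox clusters 10 of 27 genes were lower in G609G than in LCS, 7 of them Hoxb and 3 Hoxc. Slc7a11, Mt2 and Gabarapl1 were not called in this comparison by limma at the same thresholds. Slc7a11 had an LCS mean of 6.06 and a difference of 0.25 (SE 0.08, adjusted p = 0.0153), and Mt2 had an LCS mean of 13.28 and a difference of 0.71 (SE 0.04, adjusted p = 3.61e-09). Gabarapl1 was higher in G609G by 1.06 (SE 0.03, adjusted p = 5.89e-11), without passing the fold threshold as deposited.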

How the data were processed

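Total RNA of snap-frozen tissue was hybridised in 1 colour to exon arrays according to the protocols. Log2 intensity values were deposited by the authors for 229581 probe sets on 9 arrays, and the number of arrays limits the precision. The genome build is mm9 per the submitters' processing notes; the sources used here do not give how probe sets were summarised or normalized. In its design text the series names 10 samples, a t-test and a fold of 1.5; 9 arrays were analysed here. Of the probe sets 208397 carried 1 gene symbol, 3965 several and 17219 none in the platform annotation, and only the first were used. Of 16299 symbols 14132 were current, 2124 were matched through 1 synonym in the RefSeq table of GRCm38.p6 and 43 were unmatched.

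From these values, genes with at least 3 probe sets were summarised by median polish, and those with a mean above the 25th percentile, a log2 value of 5.09, were tested (11342 of 15123). All 9 arrays, grouped by title, were fitted in R 4.3.3 with limma 3.58.1 (lmFit, eBayes with a trend, Benjamini-Hochberg adjustment), as deposited and after taking from each array the median, over genes, of its differences from the gene means. Fold changes, SEs and adjusted p-values are from this fit. The fit was tested on simulated data for 11342 genes with a uniform lower offset in G609G. No unchanged gene was called there, which the fold threshold relative to the median gene made likely in advance.

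The 75 gene lists, their members and the rule for named genes were chosen with earlier results of these data known. The rule takes the 20 largest rises and falls outside the muscle and the epididymis and testis lists, up to 3 called members of each list in each direction, key genes of each list, and partners that complete a complex, pathway or receptor pair; some members of a list beyond these were named after their values were seen. Arrays of 1 genotype correlated at 0.972 to 0.989 and arrays of different genotypes at 0.904 to 0.919. The titles number the replicates 1 to 3 in each genotype. Deviations of same-numbered WT and G609G arrays from their group means correlated weakly, at 0.168, 0.145 and 0.337 over genes. The labels do not say whether the numbers mark a pairing or a batch, and the main fit is unpaired. A fit with the number as a block is among the alternatives. Other alternatives changed the gene summary, filter, scaling, fold, variance model, test and arrays. Promoters are RefSeq sequences of GRCm38.p6. Figures were drawn with matplotlib 3.10.9.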

Additional observations from a re-analysis of the deposited data

How the results depend on the processing

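Of the 471 genes the rule named 384 were called, and none of these turned its direction under the alternatives that tested it. The filter at the 50th percentile tested 320 of the 384 and the plain mean of probe sets 381. The counts of genes depended most on the scaling and the fold. Relative to the median gene alone 1107 genes were higher, with quantile normalization 1085, without a fold threshold 937 and at a fold of at least 2, 232, against 419. As deposited alone 4676 were lower, without a fold threshold 4160, at a fold of at least 2, 754, and by the methods' t-test 4648 unadjusted and 4619 after Benjamini-Hochberg, against 1833. Of the listed genes outside the muscle and the epididymis and testis lists, 96 were higher and 396 lower. These became 268, 258, 238 and 46 higher under the first 4 settings. They became 954, 860 and 166 lower as deposited, without a fold threshold and at a fold of at least 2, and 951 and 946 by the t-test. With 1 array left out, 401 to 442 genes were higher and 1789 to 1944 lower, and 90 to 104 and 381 to 419 of the listed genes. With the replicate block on the 6 arrays 419 genes were higher and 1791 lower, and 96 and 387 listed genes. The fit on the 6 arrays without the block gave the same counts. Of the named genes Hoxd9 and Syne2 lost their calls in both fits, so the block itself changed no call of a named gene. A plain mean of probe sets ended the calls of 20 named genes, among them Hmgcs1 (-0.53), Npc1, Lss (-0.38), P2ry12 (-0.58), Sfrp2 (-0.51), Slc1a5 (-0.52) and Slc25a1 (-0.58), and quantile normalization those of 13, among them Hoxb6 (-0.56), Mvk (-0.49) and Stat2 (-0.51). The cause was not tested. Dim signal limits the folds of genes near the filter.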
